A study of Rattus norvegicus with 24 samples.

Results

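Tenascins, thrombospondins, periostin and Sparc are secreted matricellular glycoproteins, matrix proteins that change how cells hold on to and read the matrix more than they build it. Of the family, 9 genes were looked up by their target names (Tnc, Tnn, Tnxb, Thbs1, Thbs2, Thbs3, Thbs4, Postn and Sparc), among 19962 targets in each of 24 GeoMx areas, and all 9 were found. GeoMx counts barcoded RNA probes released by light from chosen areas of a tissue section. The areas came from day 7 skin wounds of male SD (Sprague-Dawley) rats made diabetic with STZ (streptozotocin) at 5 weeks of age, each with a splinted defect of 8 mm through the whole skin.

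The 3 treatments were CuNZ@Gel (a nanozyme in a hydrogel, going by the names in the labels and the title), Gel (hydrogel without it) and Sham, whose handling the labels do not describe. Diabetes, sex, age at induction, wound and day were shared by all 3, so no wound of a non-diabetic rat was compared. Each treatment had 2 numbered specimens, each specimen 2 regions (named mac2 and mac1, here region 2 and region 1) and each region 2 segments (Segment 2 and Segment 1). The labels do not say that a specimen is 1 animal, do not expand the region names and do not name the fluorescent marker of a segment. Spreads and p-values therefore describe these specimens, which may not be separate animals. Of the keratinocyte markers, 0 of 9 were above background, against 5 of 8 for fibroblasts and 5 of 8 for macrophages.

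In a healing skin wound these genes are expressed for a short time. Tenascin-C (Tnc) appears under the moving wound edge and in granulation tissue and then disappears. Thrombospondin-1 (Thbs1) comes from platelets, macrophages and other cells, can release TGF-beta from its latent form and restrains vessel growth through Cd36. Thrombospondin-2 (Thbs2) is made mainly by fibroblasts, also restrains vessels, and mice without it have irregular collagen fibrils. Periostin (Postn) ties tenascin-C, fibronectin and the enzyme Bmp1 to collagen, and Sparc binds collagen and helps in its assembly.

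Promoters of 3 members are shown. Tnc and Thbs1 were chosen because both were low in region 2 of Gel specimen 2. Tnc, unlike Thbs1, was also low in region 1 of Gel specimen 1 and, less so, in region 1 of Sham specimen 2. Tnn was chosen because its treatment groups stood furthest apart. RefSeq's promoter table (build GRCr8) had an entry for 7 of the 9 members, and not for Tnxb and Thbs2. The bases given lie before the start site of the entry, on the strand of the gene, and outside the span RefSeq gives for the gene. The stretches of Thbs1 and Tnn are 250 bases long, while that of Tnc is 184 bases, from -250 to -67, because the bases nearer its start site lie inside that span.
Tnc (chr5:82476198-82476381, minus strand): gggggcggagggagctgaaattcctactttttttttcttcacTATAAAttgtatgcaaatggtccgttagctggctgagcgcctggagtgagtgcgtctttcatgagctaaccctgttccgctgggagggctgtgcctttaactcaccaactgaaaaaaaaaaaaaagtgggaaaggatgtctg
Thbs1 (chr3:125510000-125510249, plus strand): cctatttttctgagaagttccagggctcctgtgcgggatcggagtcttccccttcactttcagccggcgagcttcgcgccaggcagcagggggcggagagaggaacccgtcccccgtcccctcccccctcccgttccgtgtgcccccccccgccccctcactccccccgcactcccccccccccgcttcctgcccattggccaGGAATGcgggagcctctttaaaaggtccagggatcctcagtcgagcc
Tnn (chr13:74919790-74920039, minus strand): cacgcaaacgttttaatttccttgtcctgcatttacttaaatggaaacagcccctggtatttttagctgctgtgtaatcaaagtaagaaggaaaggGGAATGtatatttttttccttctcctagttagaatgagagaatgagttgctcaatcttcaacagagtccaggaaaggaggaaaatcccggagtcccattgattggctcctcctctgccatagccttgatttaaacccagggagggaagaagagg
Capitals mark matches to any of 4 motifs searched on both strands of the 250 bases before each start site: TATAAA (the TATA box), the CArG box of serum response factor, TGANTCA (the AP-1 site) and GGAATG (the TEAD site). The Tnc window held TATAAA from -208 to -203, relative to the start site. GGAATG stood from -47 to -42 in Thbs1 and from -154 to -149 in Tnn. Among all 33469 promoters of the table, 12.9% held TATAAA, 12.1% GGAATG, 6.34% TGANTCA and 1.5% a CArG box. The matches are letters only and show no binding.

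Values are the deposited signal, scaled by area so that its 75th percentile was 12.3 in the median area. An area's background was set at the 99th percentile of its 1127 odorant and pheromone receptor targets, genes a wound should not express (11.4 to 21.4, median 14.3), and a target was called above background when it passed that level in at least 4 areas. This held for 5483 targets and for 6 of the 9 members: Tnc, Tnn, Thbs1, Thbs2, Postn and Sparc. Areas held 86386 to 1476510 counts (median 340374), and Segment 2 areas were the shallower (median 170042, against 533137 in Segment 1). Each probe has its own efficiency, so levels were compared within a target only. In areas of mixed cells, fewer cells of a type and less RNA per cell cannot be told apart.

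Tnn, encoding tenascin-N (also called tenascin-W), known from developing bone and from the stroma of tumours, had the widest separation of the treatments. Values of a specimen are given for Segment 2 and Segment 1 of region 2 and then for Segment 2 and Segment 1 of region 1. Tnn stood at 159, 92.6, 76.7 and 125 in CuNZ@Gel specimen 1 and at 183, 170.2, 146 and 169.8 in CuNZ@Gel specimen 2. Gel specimen 1 had 5.50, 2.73, 5.45 and 1.89, and Gel specimen 2 had 2.04, 2.45, 6.13 and 3.38. Sham specimen 1 had 9.81, 11.5, 27.6 and 11.5, and Sham specimen 2 had 32.7, 37.1, 16.4 and 23.6.
The 3 treatments did not overlap: CuNZ@Gel areas were the highest, Sham areas lay between and Gel areas were the lowest. Between Gel and Sham the margin was narrow and under background, with the highest Gel area at 6.13 and the lowest Sham area at 9.81 (4 counts). Tnn was above background in 8 of 8 CuNZ@Gel areas, 0 of 8 Gel areas and 5 of 8 Sham areas, so its Gel level is that of background. Its counts were 25 to 306 in CuNZ@Gel areas, 1 to 13 in Gel areas and 4 to 106 in Sham areas. The mean of specimens was 140.3 ± 37.9 in CuNZ@Gel, 3.70 ± 0.27 in Gel and 21.3 ± 8.71 in Sham (SD, n = 2 each).

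Tnc, encoding tenascin-C, varied little between the areas of CuNZ@Gel wounds and widely within 3 of the other 4 specimens. CuNZ@Gel specimen 1 had 410.0, 423, 230.0 and 401, and CuNZ@Gel specimen 2 had 545, 467, 371 and 410.4. Gel specimen 1 had 174 and 433 in region 2 but 23.2 and 39.6 in region 1. Gel specimen 2 had 26.6 and 6.13 in region 2 but 654 and 690.2 in region 1. Sham specimen 1 had 101, 102, 138 and 115, and Sham specimen 2 had 549.8 and 434 in region 2 but 55.2 and 49.8 in region 1.
The ratio of the highest to the lowest area of a specimen was 1.84 and 1.47 in CuNZ@Gel, 18.7 and 113 in Gel, and 1.37 and 11.05 in Sham. Tnc was above background in 7 of 8 Gel areas. The exception, at 6.13 and 10 counts in Gel specimen 2, is the lowest area behind the 113, so the size of that ratio is uncertain. Treatments overlapped in every pair, and the highest and the lowest of the 24 areas both came from Gel specimen 2. Means of specimens were 407 ± 58.1 in CuNZ@Gel, 256 ± 125 in Gel and 193 ± 112 in Sham (SD, n = 2 each), and the Gel and Sham means differed by less than their SDs.

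**Figure D1:**
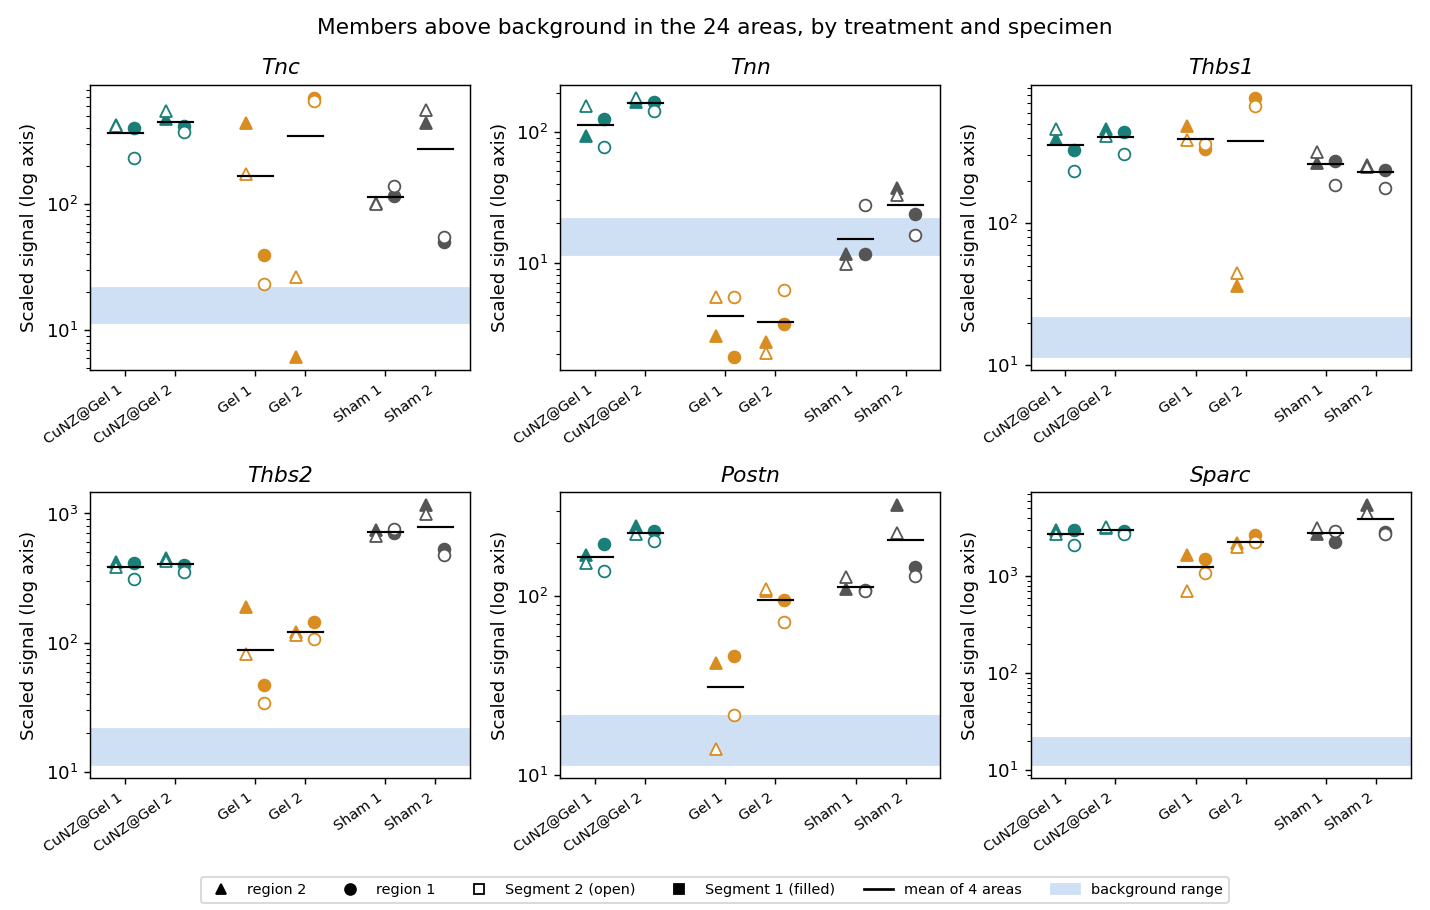
Scaled signal (log axis) of the 6 members above background in each of the 24 areas, by treatment and numbered specimen. Triangles are region 2, circles region 1, open symbols Segment 2, filled symbols Segment 1, bars the mean of 4 areas, and the blue band the range of background (11.4 to 21.4). Tnn areas of the 3 treatments do not overlap, though all Gel and some Sham areas lie under background. Tnc spans 6.13 to 690.2 within Gel specimen 2.

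Thbs2 ran the other way from Tnn between CuNZ@Gel and Sham. It stood at 385, 421, 309.7 and 413 in CuNZ@Gel specimen 1 and at 428, 449.9, 353 and 403 in CuNZ@Gel specimen 2. Gel specimen 1 had 82.0, 189, 34.1 and 47.2, and Gel specimen 2 had 115, 121, 106 and 145. Sham specimen 1 had 669.6, 740.2, 763 and 711, and Sham specimen 2 had 983, 1153, 474 and 535.
Again no treatment overlapped with another, with Sham the highest, CuNZ@Gel in the middle and Gel the lowest. The mean of specimens was 395 ± 18.5 in CuNZ@Gel, 105 ± 23.6 in Gel and 754 ± 46.2 in Sham (SD, n = 2 each). All 24 areas were above background.

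Thbs1, the platelet and macrophage thrombospondin, differed little between most areas. CuNZ@Gel specimen 1 had 464, 394, 233 and 330.3, and CuNZ@Gel specimen 2 had 410.2, 458, 307 and 441. Gel specimen 1 had 384, 484, 361 and 333, and Gel specimen 2 had 45.0 and 36.2 in region 2 but 664 and 763 in region 1. Sham specimen 1 had 319, 267, 187 and 276, and Sham specimen 2 had 249, 258, 176 and 237.
The 2 highest and the 2 lowest Thbs1 areas were all in Gel specimen 2, and the treatments overlapped. The mean of specimens was 379.7 ± 34.3 in CuNZ@Gel, 384 ± 9.50 in Gel and 246 ± 22.7 in Sham (SD, n = 2 each). CuNZ@Gel and Gel did not differ beyond their spread.

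Postn ranged from 138 to 247 (median 201) in CuNZ@Gel areas, from 14.0 to 110.4 (median 58.9) in Gel areas and from 107 to 323 (median 129) in Sham areas. Every CuNZ@Gel area was above every Gel area, while Sham overlapped with both. The Gel specimens differed from each other: specimen 1 had 14.0, 42.2, 21.8 and 46.2, and specimen 2 had 110.4, 107, 71.5 and 95.2. Means of specimens were 196 ± 43.5 in CuNZ@Gel, 63.5 ± 45.9 in Gel and 159.6 ± 65.7 in Sham (SD, n = 2 each). The CuNZ@Gel and Sham means were within 1 SD of each other.

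Sparc was well above background everywhere, at 2100.2 to 3205 (median 2966) in CuNZ@Gel areas, 700.3 to 2644 (median 1823) in Gel areas and 2250.1 to 5361 (median 2896) in Sham areas. Treatments overlapped in each pair. Gel specimen 1 was low, at 700.3, 1652, 1075 and 1501, and region 2 of Sham specimen 2 was high, at 4525 in Segment 2 and 5361 in Segment 1. Means of specimens were 2858 ± 206 in CuNZ@Gel, 1749 ± 731 in Gel and 3312 ± 769 in Sham (SD, n = 2 each).

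Tnxb, the tenascin of resting dermis whose loss in people loosens the skin, was above background in 0 of 24 areas, with 1 to 19 counts per area. Its mean of specimens was 4.49 ± 0.14 in CuNZ@Gel, 6.29 ± 3.43 in Gel and 2.995 ± 0.24 in Sham (SD, n = 2 each). Thbs3 was above background in 0 of 24 areas, at 7.79 ± 1.04, 7.66 ± 1.57 and 6.87 ± 2.05 in CuNZ@Gel, Gel and Sham. Thbs4, a thrombospondin of tendon and muscle, was also above background in 0 of 24 areas, at 5.52 ± 1.25, 4.23 ± 0.36 and 3.66 ± 1.45 in CuNZ@Gel, Gel and Sham. No difference of these 3 genes was detectable at this depth.

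The treatments were set against each other in a limma fit of log2(signal + 1) over all 19728 targets tested, on the means of the 6 specimens. The family was chosen by earlier results of these comparisons, in which Tnn, Tnc and Thbs2 stood out, so its treatment differences are descriptions without p-values, and the counts are not evidence about the family. A member is called when its Benjamini-Hochberg adjusted p over all targets was at or under 0.05. The comparisons share specimens, since Sham and Gel each enter more than 1 of them.

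Between CuNZ@Gel and Gel, 3 of 9 members were called, where 0.943% of all targets were (0.623% higher and 0.319% lower). All 3 were higher in CuNZ@Gel: Tnn by 4.94 (SE 0.23), Thbs2 by 2.07 (SE 0.18) and Tnc by 2.07 (SE 0.18) on the log2 scale. Since Tnn was at background in Gel, its difference is the distance from background and may understate the true ratio. Postn was not called at 1.88 (SE 0.75), nor Sparc at 0.80 (SE 0.22), nor Thbs1 at 0.53 (SE 0.33). Postn was called in 6 of 28 alternatives, among them edgeR (1.68), limma without trend and robust (1.88), and the omission of Gel specimen 1 (1.02) or Gel specimen 2 (2.74). Sparc was called in 8 of 28, among them Segment 2 areas alone (0.97), thinned counts (0.80) and the omission of Gel specimen 2 (1.28).

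Between CuNZ@Gel and Sham, 3 of 9 members were called, against 1.31% of all targets (0.324% higher and 0.988% lower). Tnn was higher by 2.76 (SE 0.23) and Tnc by 1.55 (SE 0.18), while Thbs2 was lower at -0.88 (SE 0.18). Thbs1 was not called at 0.61 (SE 0.33), nor Postn at 0.38 (SE 0.75), nor Sparc at -0.17 (SE 0.22). The Thbs2 call was lost in 11 of 28 alternatives, among them edgeR (-0.92), DESeq2 (-0.94) and quantile normalization (-0.40). The Tnc call was lost in 8 of 28, among them DESeq2 (1.30), the mean of linear signal (1.197) and 5 of the 6 omissions of a region, the lowest being 0.75 without region 1 of Sham specimen 2.

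Between Gel and Sham, 3 of 9 members were called, against 2.42% of all targets (0.618% higher and 1.80% lower). All 3 were lower in Gel: Thbs2 at -2.96 (SE 0.18), Tnn at -2.18 (SE 0.23) and Sparc at -0.97 (SE 0.22). Sparc lost its call in 11 of 28 alternatives, among them edgeR (-0.91), DESeq2 (-0.93) and quantile normalization (-0.37). It was called without Gel specimen 1 (-0.50) and without Gel specimen 2 (-1.45). Postn was not called at -1.50 (SE 0.75), but was in 4 of 28 alternatives, among them edgeR (-1.39) and the omission of Gel specimen 2 (-2.36). Without Gel specimen 1 Postn stood at -0.64. Tnc was not called at -0.51 (SE 0.18), nor Thbs1 at 0.09 (SE 0.33).

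**Figure D2:**
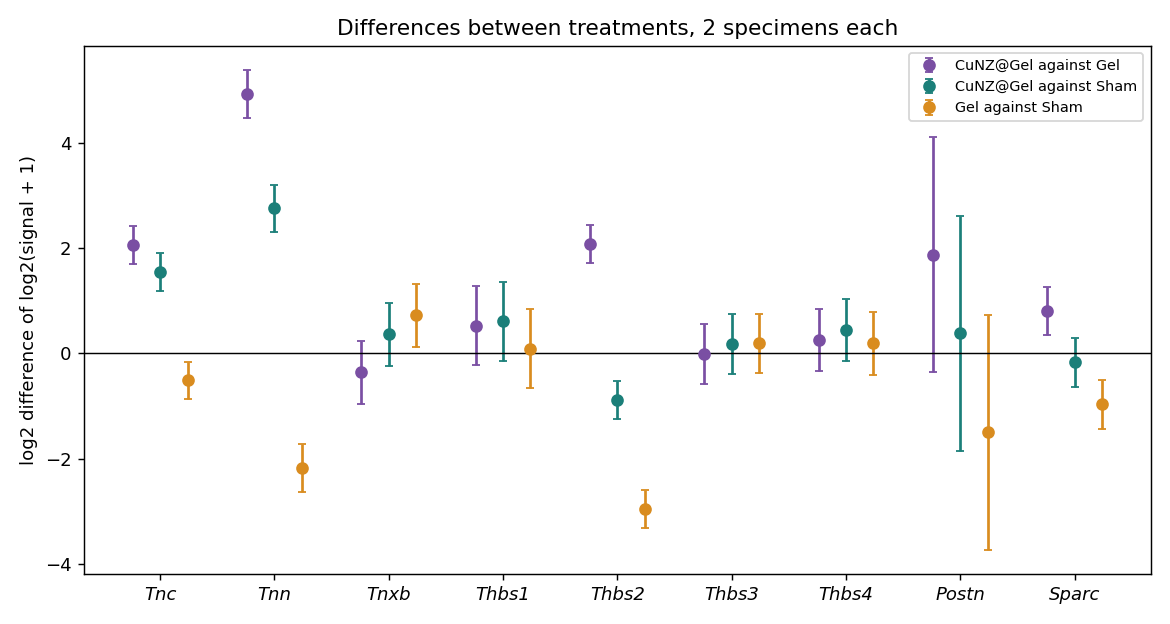
Log2 differences of log2(signal + 1) of the 9 members between treatments, from limma on 2 specimens per treatment, with bars for the confidence interval of the fit. Tnn is highest in CuNZ@Gel against Gel (4.94), Thbs2 lowest in Gel against Sham (-2.96), and the bars of Postn are the widest.

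The separation of areas was read against all targets too. Areas of the 2 treatments did not overlap for 0.279% of targets between CuNZ@Gel and Gel, for 0.897% between CuNZ@Gel and Sham and for 0.735% between Gel and Sham. Tnn and Thbs2 were among them in all 3 comparisons, and Postn between CuNZ@Gel and Gel. For Tnn between Gel and Sham, the areas closest to each other were both under background (6.13 in Gel and 9.81 in Sham). Tnn kept its call in 28 of 28 alternatives between CuNZ@Gel and Gel (4.03 to 5.36). It kept it in 27 of 28 between CuNZ@Gel and Sham (2.32 to 3.46) and in 27 of 28 between Gel and Sham (-2.65 to -1.52), where Segment 1 areas alone were the exception. Thbs2 kept its call in 27 of 28 between CuNZ@Gel and Gel (1.67 to 2.48) and in 27 of 28 between Gel and Sham (-3.36 to -2.53), the exception being the omission of region 2 of Gel specimen 1.

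The Tnc calls rest on averaging the regions of a specimen. As mean log2 signal the Gel specimens were nearly alike (6.54 and 6.60), although their regions differed by 3.14 and -5.58 (region 2 minus region 1). The CuNZ@Gel specimens had 8.48 and 8.80, and the Sham specimens 6.83 and 7.34. Leaving out 1 region of a Gel specimen moved the difference between CuNZ@Gel and Gel to between 0.67 and 3.46 and ended the call each time. Averaging linear signal instead gave 0.75, and edgeR and DESeq2 on summed counts gave 0.51 and 0.51, none of them called. Between Gel and Sham the sign of the Tnc difference turned in 6 of 28 alternatives (-1.91 to 0.88).

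The regions of a specimen were then compared for every target above background, as descriptions, since each specimen has 1 pair of regions. The median size of the difference over the 5483 targets was 0.20 to 0.36 log2 units by specimen. In Gel specimen 2, Tnc averaged 16.4 in region 2 and 672 in region 1, and no other target above background differed more. In Gel specimen 1 the order was the opposite, with Tnc at 304 in region 2 and 31.4 in region 1, again the largest difference of all. In Sham specimen 2, Tnc averaged 492 in region 2 and 52.5 in region 1 (3.20), and 2 targets differed more, Spp1 (-4.12) and Mmp13 (-4.08).
In the other specimens the Tnc regions were close, at 0.45 and 0.37 in CuNZ@Gel and -0.31 in Sham specimen 1. Both segments showed the large differences: in Gel specimen 2 region 1 exceeded region 2 by 24.6-fold in Segment 2 and 113-fold in Segment 1. Region 2 of Gel specimen 2 held 13 Tnc counts in Segment 2 and 10 in Segment 1, the latter under background, so these ratios are rough. In Gel specimen 1 region 2 exceeded region 1 by 7.50-fold in Segment 2 and 10.9-fold in Segment 1. In Sham specimen 2 the ratios were 9.96 in Segment 2 and 8.71 in Segment 1.

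Thbs1 followed Tnc in 1 of the 3 specimens. In Gel specimen 2 it averaged 40.6 in region 2 and 714 in region 1 (-4.11), and 2 targets differed more, Tnc and Arg1 (-4.35), which encodes arginase. Region 1 exceeded region 2 by 14.8-fold in Segment 2 and 21.1-fold in Segment 1. In Gel specimen 1 Thbs1 differed by 0.31 and in Sham specimen 2 by 0.31. Thbs2 differed by 1.61 in Gel specimen 1 and 1.08 in Sham specimen 2, but by -0.08 in Gel specimen 2. Postn and Sparc reached 0.96 and 0.83 in Sham specimen 2, and Tnn 0.80.

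Cell markers were set beside the region differences. In Gel specimen 2 the summed fibroblast markers averaged 2064 in region 2 and 2146 in region 1, and macrophage markers 679.8 in region 2 and 782 in region 1. In Gel specimen 1 fibroblast markers averaged 1208 in region 2 and 1280.1 in region 1. In Sham specimen 2 fibroblast markers averaged 5793 in region 2 and 3533 in region 1, and macrophage markers 734 in region 2 and 643 in region 1. Of 4 tendon and fascia markers, 1 was above background, Fmod (Scx, Tnmd and Mkx were not). Their sum was higher in the region with the higher Tnc in each of the 3 specimens. No other marker list looked at did this, and with many lists 1 such match says little. The tendon and fascia sum averaged 32.2 in region 2 and 61.4 in region 1 of Gel specimen 2. It averaged 39.2 in region 2 and 32.4 in region 1 of Gel specimen 1. In Sham specimen 2 it averaged 90.2 in region 2 and 42.6 in region 1. The part of these cells in the Tnc differences of the 3 specimens was not tested.
These 3 specimens were picked for their Tnc difference, so Tnc had to be in the count that follows. Of the 5483 targets, 5 differed by over 1 log2 unit in all 3 specimens: Tnc, Hcar2, Igf1, Mmp13 and Ptges. The count is by size, whatever the direction. Mmp13 went with Tnc in Gel specimen 1 (2.67) and Gel specimen 2 (8.99 in region 2 and 43.6 in region 1). It went against Tnc in Sham specimen 2 (-4.08). Igf1 went against Tnc in Gel specimen 2 (2.68).

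**Figure D3:**
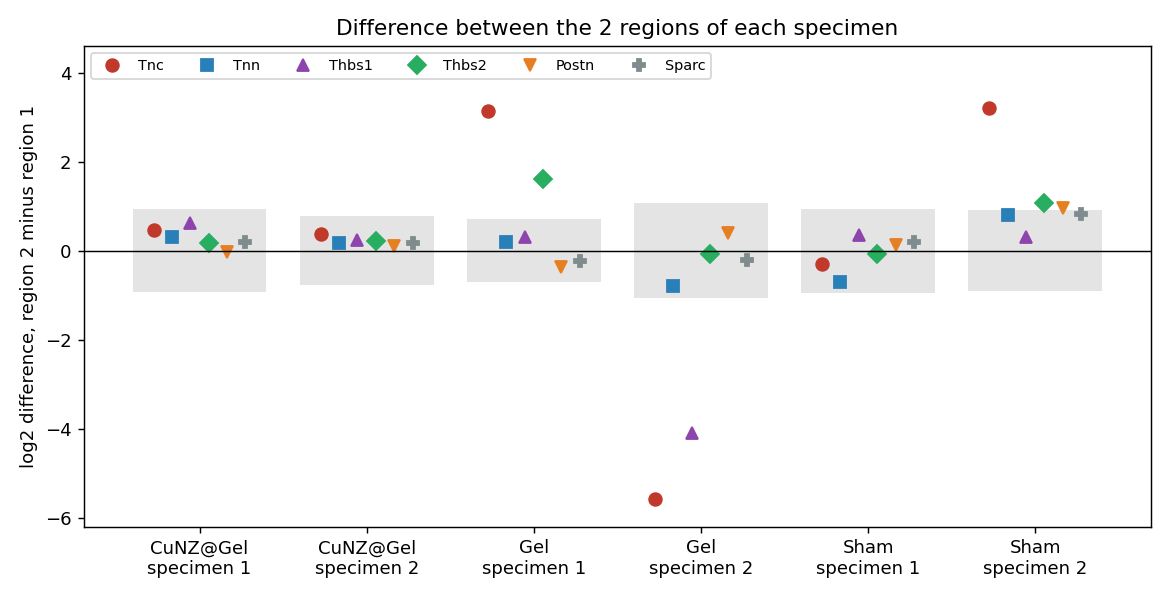
Log2 difference between the regions (region 2 minus region 1) of each specimen for the 6 members above background. Grey boxes span the central share of all 5483 targets above background, up to the 95th percentile of the size of the difference. Tnc lies at 3.14, -5.58 and 3.20 in Gel specimen 1, Gel specimen 2 and Sham specimen 2, and Thbs1 at -4.11 in Gel specimen 2.

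Segment 2 was compared with Segment 1 within specimens, a contrast for which no earlier result of the members was at hand. None of the 9 members was called by limma with the specimen as a block, where 1.93% of all targets were (0.340% higher and 1.59% lower). edgeR and DESeq2 also called 0 of 9. Thbs2 was lower in Segment 2 in 6 of 6 specimens and in 11 of 12 regions, at -0.29 (SE 0.08, limma adjusted p = 0.0555). An exact two-sided sign-flip permutation test over the 6 specimens gave p = 0.03125 for Thbs2, the smallest this design allows, but it did not stay under 0.05 once adjusted for the 9 members tested. Postn was lower in 5 of 6 specimens, at -0.37 (SE 0.11, limma adjusted p = 0.0674).
Across all targets above background the median difference was -0.20, so both members lay little below it. Sparc stood at -0.21 (SE 0.13), Thbs1 at -0.15 (SE 0.08), Tnn at 0.23 (SE 0.15) and Tnc at -0.02 (SE 0.25). Tnc differed between specimens, from -1.03 in Gel specimen 1 to 0.94 in Gel specimen 2. Segment 2 was also the shallower, with a median of 28.5% of targets at 1 count, against 2.19% in Segment 1. With counts thinned to 86386 per area Thbs2 stood at -0.35 and Postn at -0.47, neither called, while Sparc (-0.23) and Tnn (1.49) were. By quantile normalization Thbs2 stood at -0.10 and Postn at -0.22. By scaling to the median above background they stood at -0.13 and -0.21, and neither was called in these 2 settings. Without Sham specimen 1, limma called Thbs2 (-0.34), Postn (-0.46) and Sparc (-0.32) lower in Segment 2.

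**Figure D4:**
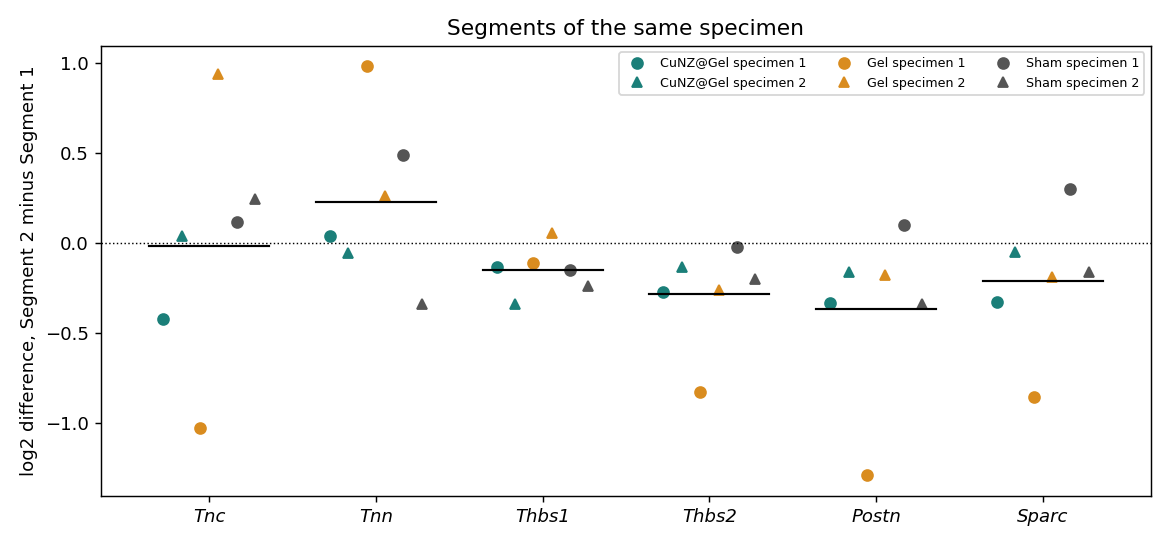
Log2 difference between the segments (Segment 2 minus Segment 1) of each specimen for the 6 members above background, with the mean of 6 specimens as a bar. Thbs2 is below 0 in 6 of 6 specimens, and Tnc runs from -1.03 to 0.94.

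Whether treatment differences depended on the segment was asked with limma's F test of the interaction. Of the 9 members 0 were called, against 0.0507% of all targets. The lowest adjusted p-values of this F test were those of Thbs2 (adjusted p = 0.854) and Postn (adjusted p = 0.870). edgeR and DESeq2 called 0 of 9. By segment, Tnn differed between CuNZ@Gel and Gel by 4.62 in Segment 2 and 5.25 in Segment 1. Thbs2 differed between Gel and Sham by -3.17 in Segment 2 and -2.74 in Segment 1. In the same comparison Postn differed by -1.81 in Segment 2 and -1.19 in Segment 1, and Sparc by -1.27 in Segment 2 and -0.67 in Segment 1. Without Gel specimen 2 the interaction was called for 2 members, Sparc (adjusted p = 0.00205) and Tnc (adjusted p = 0.0455).

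Members were also compared by their pattern over the 24 areas, as Pearson r of log2(signal + 1), a description without p since areas share specimens and depth. Postn and Sparc were the closest pair (r = 0.93, and 0.93 within treatments), and Sparc was nearest to Col1a2 (0.97) and Col1a1 (0.96), which encode collagen I. Thbs2 and Sparc reached 0.81, and Tnc and Thbs1 0.75 (0.74 within treatments). Between regions Thbs1 followed the wide Tnc difference in Gel specimen 2 (-4.11 and -5.58). In Gel specimen 1 and Sham specimen 2 Thbs1 differed by 0.31 each, where Tnc differed by 3.14 and 3.20. How far this r rests on Gel specimen 2 was not tested. Thbs1 and Thbs2 were unrelated, at 0.02. The nearest target to Tnc was Lox (0.92, and 0.90 within treatments), the enzyme that cross-links collagen.
Lox had the region differences of Tnc on a smaller scale. It averaged 101 in region 2 and 369.9 in region 1 of Gel specimen 2, 226 in region 2 and 162 in region 1 of Gel specimen 1, and 395 in region 2 and 176 in region 1 of Sham specimen 2. Next to Tnc came Ccn4 (0.83), a matricellular gene of the Wnt pathway, and Chst11 (0.82), a chondroitin sulfotransferase. Thbs1 was nearest to Timp1 (0.81), an inhibitor of matrix proteases. Thbs2 was nearest to Cdh11 (0.95), the cadherin of fibroblasts, and to the matrix genes Fbn2 (0.95) and Col12a1 (0.95).
Tnn was nearest to Spib (0.83), Rpn2 (0.82) and Ccn2 (0.80), but within treatments these dropped to 0.27, 0.06 and 0.46, so the likeness lay mostly between treatments. Rpn2, a subunit of the enzyme that adds sugars to new proteins, averaged 64.6 in CuNZ@Gel, 9.33 in Gel and 9.14 in Sham.

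**Figure D5:**
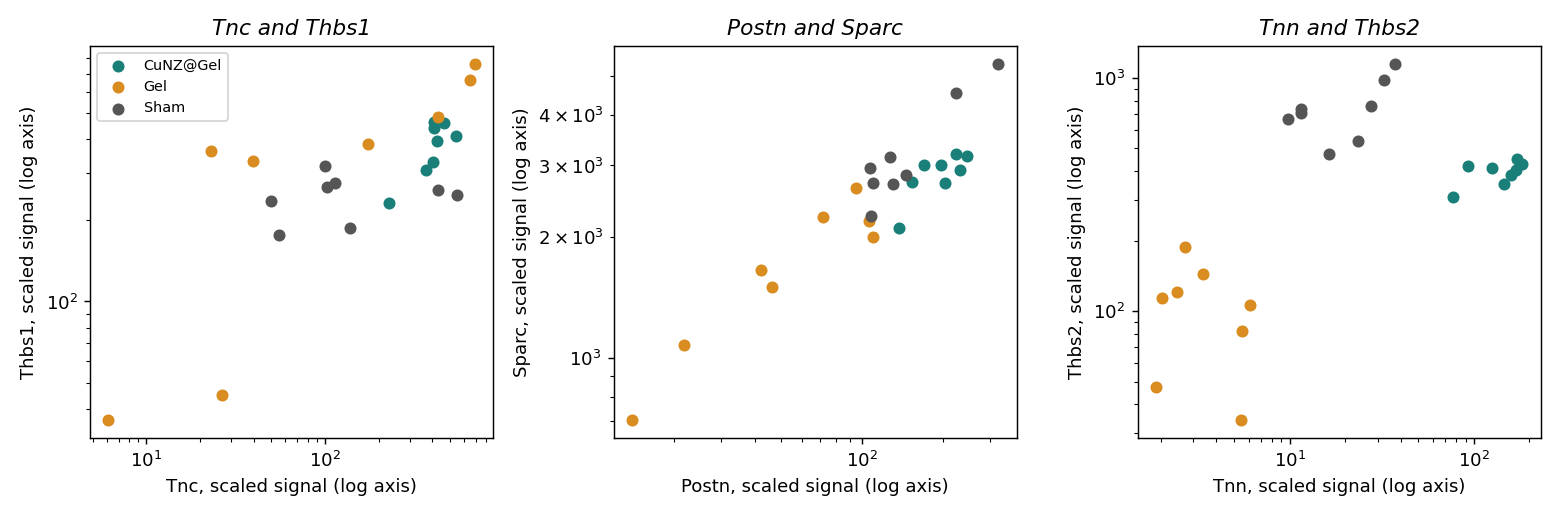
Scaled signal (log axes) of pairs of members in the 24 areas, coloured by treatment. Tnc and Thbs1 fall together in 2 Gel areas (r = 0.75 over all areas), Postn and Sparc lie along a line (r = 0.93), and Tnn and Thbs2 separate the treatments in different orders.

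Genes around the family were counted in lists chosen with earlier results of these data known. The counts are to be read beside those of all targets by limma. Of the 5483 targets above background, 120 were called higher and 60 lower in CuNZ@Gel than in Gel. Between CuNZ@Gel and Sham these were 48 and 193, and between Gel and Sham 90 and 344. Of all targets tested, 0.943%, 1.31% and 2.42% were called in these comparisons. Of 10 family relatives, Fstl1, related to Sparc, was the 1 above background and the 1 called. It averaged 386 in CuNZ@Gel, 234 in Gel and 697 in Sham, the order of Thbs2. Log2 differences of Fstl1 were 0.81 between CuNZ@Gel and Gel, -0.83 between CuNZ@Gel and Sham and -1.64 between Gel and Sham.

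Of 14 other matricellular genes, 4 were higher and 0 lower in CuNZ@Gel than in Gel: Ccn1, Ccn2, Ccn3 and Ccn4. Ccn1 was not above background (11.2 in CuNZ@Gel and 4.98 in Gel). Ccn2, connective tissue growth factor, averaged 23.5 in CuNZ@Gel, 6.25 in Gel and 8.98 in Sham. Its Gel and Sham means lay under the lowest background of any area (11.4), so its differences from CuNZ@Gel are distances from background. Between CuNZ@Gel and Sham 1 was higher (Ccn2) and 2 lower (Ccn3 and Lgals1), and between Gel and Sham 0 were higher and 3 lower (Ccn3, Ccn4 and Lgals1). The largest difference of the list belonged to Spp1, osteopontin, at -4.60 (SE 1.29) between Gel and Sham, which was not called. The median of the members above background was 1.46 between CuNZ@Gel and Gel, -0.52 between CuNZ@Gel and Sham and -1.001 between Gel and Sham, beside -0.0026, -0.16 and -0.15 over all targets above background.

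Of 20 receptors and binding partners at the cell, Itga8, the integrin chain that binds tenascin-C and other matrix proteins, was called in all 3 treatment comparisons. It averaged 19.0 in CuNZ@Gel, 10.2 in Gel and 47.3 in Sham. Between CuNZ@Gel and Gel 1 of the 20 was higher and 0 lower, between CuNZ@Gel and Sham 0 and 2 (Itga8 and Itgb3), and between Gel and Sham 0 and 3 (Itga8, Sdc1 and Itgb5). In Segment 2, 5 of the 20 were lower and 0 higher than in Segment 1, with Itgb3 at -0.72 and the thrombospondin receptor Cd36 at -0.70. Over all 5483 targets above background, 305 were lower and 0 higher in Segment 2 by limma.

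Of 18 matrix partners, 13 of them above background, 5 were higher and 0 lower in CuNZ@Gel than in Gel: Fn1, Col5a1, Col12a1, Lox and Loxl2. Col12a1, a collagen that sits on fibril surfaces and binds tenascins, averaged 923 in CuNZ@Gel, 248 in Gel and 1682 in Sham. Between CuNZ@Gel and Sham 0 were higher and 4 lower, and between Gel and Sham 0 were higher and 7 lower. The median above background was 1.00 between CuNZ@Gel and Gel, -0.37 between CuNZ@Gel and Sham and -1.54 between Gel and Sham. Over all targets above background it was -0.0026, -0.16 and -0.15.

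Of 18 inducers, Tgfbr1, a receptor of TGF-beta, was called higher in CuNZ@Gel than in Gel (119.5 against 72.2), the 1 of the list. Between CuNZ@Gel and Sham 0 of 18 were called by limma. Between Gel and Sham 2 were lower, Tgfbr1 (72.2 in Gel and 150.4 in Sham) and Tgfb2, which was not above background. Of 11 proteases that cut members of the family, 0 were called between CuNZ@Gel and Gel by limma, 1 was lower in CuNZ@Gel than in Sham (Mmp2) and 2 were lower in Gel than in Sham (Mmp2 and Mmp14).

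Markers of cell types were set beside the members between treatments, and their order was that of some members and not of others. The sum of 8 fibroblast markers, 5 of them above background, ran from 1889 to 3062 (median 2839) in CuNZ@Gel areas, 731 to 2249 (median 1864) in Gel areas and 3362 to 6646 (median 3806) in Sham areas. Dcn, Pi16 and Dpp4 of that list were not above background. Myofibroblast and smooth muscle markers ran from 334 to 654 (median 462) in CuNZ@Gel areas, 41.9 to 174 (median 84.2) in Gel areas and 439 to 959 (median 644) in Sham areas, with Acta2 and Tagln above background and Myh11, Cnn1, Des, Myl9 and Lmod1 not.
By their medians both sums had the order of Thbs2, with CuNZ@Gel over Gel and under Sham, while Tnn and Tnc were highest in CuNZ@Gel. The tendon and fascia markers, 1 of 4 above background, had overlapping ranges. They ran from 46.2 to 101 (median 64.004) in CuNZ@Gel areas. The range was 22.6 to 71.5 (median 38.9) in Gel areas and 16.6 to 107 (median 30.3) in Sham areas. Their median was highest in CuNZ@Gel, as that of Tnc was (410 in CuNZ@Gel, 107 in Gel and 109 in Sham). By medians Gel stood over Sham for these markers, but not for Tnc. Pericyte markers, 4 of 6 above background (Pdgfrb and Notch3 were not), had medians of 104 in CuNZ@Gel, 94.1 in Gel and 241 in Sham. Macrophage sums overlapped (medians 658 in CuNZ@Gel, 617 in Gel and 732 in Sham). Erythroid markers, with 1 of 2 listed targets above background, had medians of 26.4 in CuNZ@Gel, 29.3 in Gel and 933 in Sham. The part of these cells in the treatment differences was not tested.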

How the data were processed

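GeoMx areas of day 7 rat wounds were measured with RNA probes on fixed sections, per the labels' protocols. The deposited values are a signal per target, 1 file per area. How the tags were counted, filtered and scaled, and on which genome build, is not given in the sources used here. Across areas the 75th percentile of the signal was 12.1 to 12.3. In each area 99.98% to 99.995% of the deposited signal values were whole multiples of the lowest, within 0.01 of a count, so whole counts were recovered. No target is listed at 0, and the lowest value is 1 count. Areas held 86386 to 1476510 counts, and their depth limits low members.

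Signals were analysed as log2(signal + 1), which shrinks differences where signal is low. A target was tested if 4 or more areas had it over the negative probe (19728 of 19962). Each of the 6 specimens entered as the mean log2 signal of its 4 areas, in limma 3.58.1 (R 4.3.3), with lmFit and then eBayes using its trend and robust options. For segments the 12 means of specimen and segment were fitted with the specimen as a block, and the interaction was an F test. Adjustment was by Benjamini-Hochberg across every tested target, with 0.05 as the limit. limma pools the spread of targets, so Tnc was tested with an SD of 0.18 where its own was 0.24, and Tnn with 0.23 where its own was 0.44. The areas of a specimen share tissue and are not replicates.

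Alternatives covered pseudocount, filter, scaling, averaging, test (recovered counts of a specimen added up and given to edgeR 4.0.16 or DESeq2 1.42.0), depth, segments, omission of specimens, and, chosen after seeing the data, omission of 1 region of a specimen. The fits were tested on simulated data. The specimen numbers do not pair the samples: the differences between specimen 1 and specimen 2 correlated between treatments at -0.03, -0.03 and 0.00 over 5483 targets.

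The members and lists were chosen with earlier results of these data known. Named genes were the 9 members, the 3 targets nearest in pattern to each member above background, and the 2 genes of each list with the largest differences. Other names were taken from counts of called genes or chosen after their values were seen (Spp1, Mmp13 and Arg1 among the regions). Target names follow the files. Promoter sequences are RefSeq's (GRCr8).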

Additional observations from a re-analysis of the deposited data

Results flagged for a closer look

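Each of the 9 members was checked in each treatment for a single area standing apart from the other 7, 27 checks in all, and 3 stood apart by more than 0.526 of the range of their 8 areas. For 8 independent values chance alone gives about 1 in 20. The areas of a specimen share tissue and are not independent, so that rate need not hold here and the flags are descriptions. In CuNZ@Gel, the area of specimen 1, region 1, Segment 2 was the lowest for Tnc (230.0) and for Sparc (2100.2). It was the shallowest of the 24 areas, with 86386 counts and 46.9% of targets at 1 count. Lox, Col1a2 and Acta2 were also lowest there among the CuNZ@Gel areas, Acta2 by little (282.1 against 284.8), while Tagln was not. Lox and Col1a2 are the targets nearest in pattern to Tnc and Sparc over these same areas, so their low values are no separate evidence. Whether the low values were particular to Tnc and Sparc was not tested. Thbs3, which was above background in 0 of 24 areas, was lowest at 2.83 in CuNZ@Gel specimen 2, region 1, Segment 1.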

How the results depend on the processing

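The count of members called was within 1.5 times the count reported in 26 of 28 alternatives between Gel and Sham, 24 of 28 between CuNZ@Gel and Sham, 24 of 28 between CuNZ@Gel and Gel, 14 of 17 between segments and 16 of 17 for the interaction. The exceptions were 1 member between CuNZ@Gel and Sham with each area a sample, with DESeq2 and on omitting region 2 of Gel specimen 1 or of Gel specimen 2, and 1 between CuNZ@Gel and Gel on omitting region 2 of Gel specimen 1. Segment 1 areas alone gave 1 between Gel and Sham. Between segments, averaging linear signal gave 1 and counts thinned to the shallowest area gave 2. Thinning also moved Tnn between segments to 1.49 and called it. Thinned counts can be 0 and deposited ones cannot, and whether this made the shift was not tested. Omitting each specimen in turn gave 2 to 6 members between Gel and Sham (6 without Gel specimen 2), 2 to 4 between CuNZ@Gel and Sham, and 3 to 5 between CuNZ@Gel and Gel (5 without either Gel specimen). It gave 0 to 3 between segments (3 without Sham specimen 1) and 0 to 2 for the interaction (2 without Gel specimen 2). The specimen number as a replicate block, whose numbers share no origin, gave 4, 3 and 5 members between Gel and Sham, CuNZ@Gel and Sham, and CuNZ@Gel and Gel.

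Of all targets, limma called 478 between Gel and Sham, 259 between CuNZ@Gel and Sham, 186 between CuNZ@Gel and Gel, 381 between segments and 10 for the interaction. In the same order DESeq2 called 152, 59, 55, 142 and 1, edgeR 368, 181, 160, 334 and 14, and limma without trend and robust 176, 44, 75, 0 and 0. Over all alternatives these counts ran from 152 to 752, 44 to 461, 55 to 293, 0 to 495 and 0 to 36.

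Tnc between Gel and Sham turned to 0.45 by mean linear signal, 0.80 by edgeR, 0.79 by DESeq2, and 0.27, 0.88 and 0.28 on omitting region 1 of Gel specimen 1, region 2 of Gel specimen 2 and region 2 of Sham specimen 2. Between segments it turned to 0.13 by quantile normalization, 0.13 by scaling to the median above background, 0.0614 without CuNZ@Gel specimen 1 and 0.18 without Gel specimen 1 (-0.21 without Gel specimen 2). Thbs1 between CuNZ@Gel and Gel turned to -0.0182 by mean linear signal, -0.096 by edgeR, -0.0841 by DESeq2 and -0.50 without region 2 of Gel specimen 2, and ran from -0.0599 (without Gel specimen 2) to 1.11 (without Gel specimen 1) over the omitted specimens. Thbs1 between Gel and Sham turned to -0.0876 with thinned counts, -0.50 without Gel specimen 1 (0.67 without Gel specimen 2), -0.0023 without Sham specimen 2 and -0.94 without region 1 of Gel specimen 2. Between segments Thbs1 turned to 0.0289 by quantile normalization and 0.00051 by scaling to the median. Sparc between CuNZ@Gel and Sham turned to 0.31 by quantile normalization, 0.0464 without Sham specimen 2 (-0.38 without Sham specimen 1) and 0.0408 without region 2 of Sham specimen 2. Postn between CuNZ@Gel and Sham was -0.0035 without Sham specimen 1 and 0.76 without Sham specimen 2. None of these differences was called in the fit reported, and apart from the omissions, whose construction is fewer areas, the cause was not tested. The Tnc call between CuNZ@Gel and Sham was lost in 8 of 28 alternatives and that between CuNZ@Gel and Gel in 9 of 28.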
